A study of Bos taurus with 12 samples.

Results

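The 10 genes described here assemble triglycerides in the mammary gland (MG) or build and secrete the milk fat globule, and they were chosen by this role. GPAM, LPIN1, DGAT1 and DGAT2 encode enzymes of triglyceride assembly (3 acyltransferases and the phosphatase LPIN1), and BTN1A1, XDH, PLIN2, MFGE8, MUC1 and CIDEA encode proteins of the lipid droplet or of the membrane around the globule. The RefSeq accession given with each array probe, without its version, assigned 28 probes to these genes, of 43653 probes and 12639 named genes on the array. MG expression was measured on one-colour Agilent bovine arrays in 6 control (CONT) and 6 nutrient-restricted (REST) Holstein cows, with 1 biopsy and 1 array per cow. All 12 cows were multiparous and entered the trial in early lactation (24 ± 3 d in milk). The groups differed in feed over 4 d. Barley straw supplied 48% of the dry matter eaten by REST cows, and CONT cows ate an undiluted lactation ration without limit. In all cows 50 µg of LPS went into a healthy gland of the rear udder on d 3, and MG was biopsied 24 h later. Both groups were thus challenged, and the arrays hold no unchallenged gland. Cows are named CONT 1 to CONT 6 and REST 1 to REST 6, and these numbers are names without any order or pairing.

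In the lactating gland, fatty acids are joined to a glycerol backbone in the endoplasmic reticulum. Glycerol-phosphate acyltransferases such as GPAM begin this route, lipins remove the phosphate, and the DGAT enzymes add the last fatty acid. The triglyceride collects in lipid droplets coated by perilipins such as PLIN2. Droplets leave the epithelial cell wrapped in its apical membrane, where butyrophilin (BTN1A1), xanthine dehydrogenase (XDH) and PLIN2 are known to interact. Mucin 1 (MUC1) and lactadherin (MFGE8) are also proteins of this membrane.

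Values are log2 spot signals minus the 75th percentile of the same array, so that a negative value lies below that percentile. Probes differ in brightness for reasons of design, and the level of a gene is therefore compared between cows only. The sums over marker genes used further on are weighted by probe brightness for the same reason. The brightest probe stands for each gene unless stated. No probe of these genes was saturated on any array, and Feature Extraction marked 22 of the 28 as well above background on every array. The brightest probes of LPIN1 and DGAT2 carried this mark in 6 CONT and 5 REST cows, and those of the other 8 genes in all cows. The 12 arrays came from 3 slides of 4, with 3 CONT and 1 REST on slide 1, 1 CONT and 3 REST on slide 2, and 2 of each on slide 3. The 75th percentile of the signal was 577 to 1184 in CONT and 387 to 1082 in REST, and 57.6 to 78.2% of spots were well above background. Precision is limited by the number of arrays.

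None of the 10 genes passed an adjusted p of 0.05 between REST and CONT (limma, Benjamini-Hochberg over all probes), and all of them had an adjusted p of 1. Over all probes the share passing this threshold was 0%, and the lowest adjusted p was 0.777. At an unadjusted p under 0.05 there were again 0 of 10 genes and 0 of 28 probes, against 2.64% of all genes (1.63% higher and 1.01% lower in REST) and 2.62% of all probes (1.74% higher and 0.875% lower). The lowest unadjusted p among the 10 genes was 0.201 with limma, for DGAT1. Values of CONT and REST overlapped in each of the 10 genes, and 0.15% of all named genes had groups that did not overlap. The mean was higher in REST for 8 of the 10 genes and 26 of the 28 probes, compared with 43.5% of all genes and 46.1% of all probes. The median log2 FC was 0.25 over the 10 genes and -0.034 over all named genes. These probes are not independent, since several target the same transcript. Without CONT 6, 4 of the 10 genes had a higher mean in REST (BTN1A1 was then -0.13, XDH -0.036, MFGE8 -0.37, MUC1 -0.38, CIDEA -0.18 and DGAT2 0.17) and the median of the 10 was -0.08, whereas without REST 3 the median was 0.58. With slide as a block, 6 of the 10 genes had a higher mean in REST and the median log2 FC was 0.07, against 52.4% of all named genes and a median of 0.012 in that fit.

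**Figure D1:**
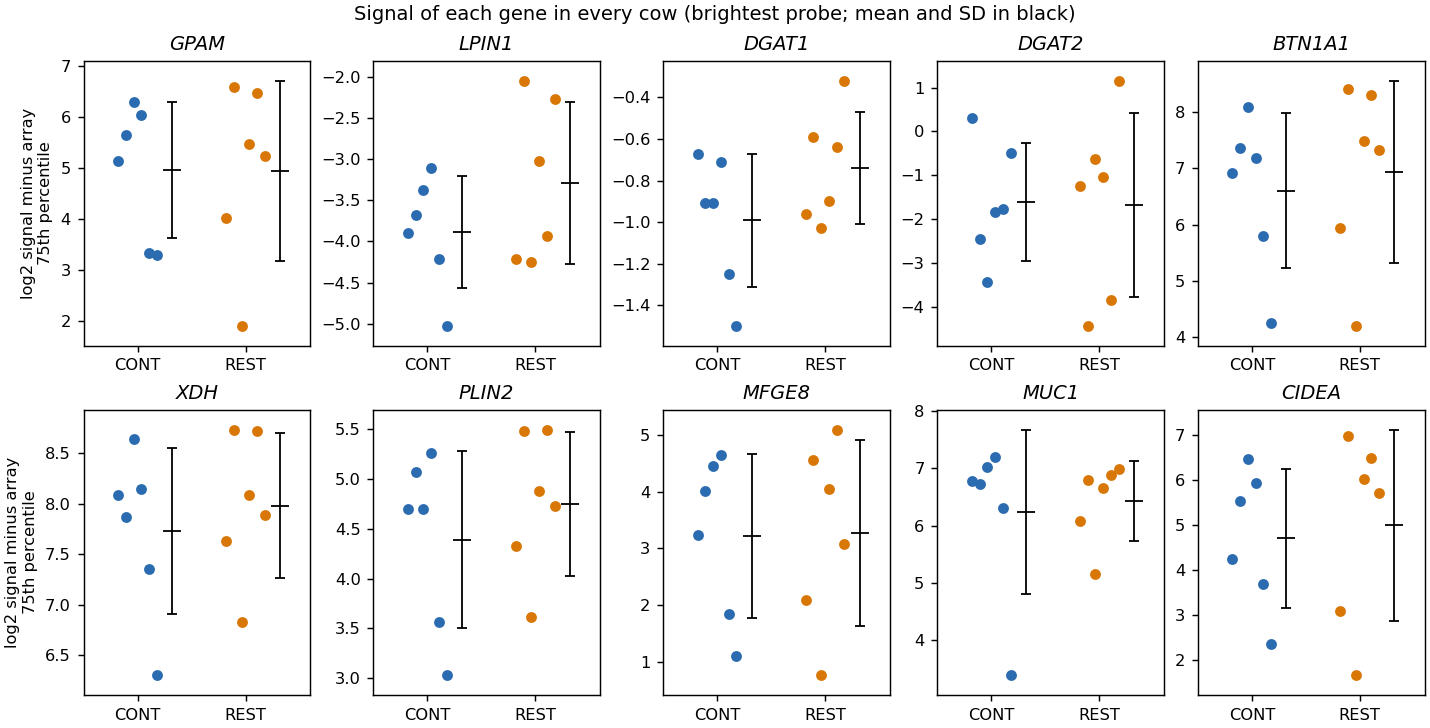
Log2 signal minus the array's 75th percentile for the brightest probe of each gene, with 1 point per cow (blue CONT, orange REST, n = 6 each) and the group mean ± SD in black. CONT and REST overlap in every panel, and the signal of CIDEA runs from 1.67 to 6.98 over the 12 cows.

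Among the assembly enzymes, GPAM (NM_001012282) encodes the mitochondrial acyltransferase that adds the first fatty acid to glycerol phosphate. Its log2 signal was 3.29 to 6.31 in the CONT cows, around a median of 5.40, and 1.89 to 6.59 in the REST cows, around 5.35. REST 3 was the lowest cow and REST 2 the highest, so that the CONT range lay inside the REST range. GPAM gave a log2 FC of -0.015 (SE 0.81, 95% interval -1.78 to 1.75, limma), an interval that runs from 3.44-fold lower to 3.36-fold higher in REST. Its other probes gave log2 FC of 0.0034 and 0.087.

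LPIN1 (NM_001206156) encodes a lipin, the phosphatase that turns phosphatidate into diacylglycerol. Its log2 signal was -5.03 to -3.11 in the CONT cows, around a median of -3.79, and -4.25 to -2.05 in the REST cows, around -3.48. REST 2, REST 6 and REST 4 were above every CONT cow, and the other 3 REST cows lay among the CONT cows. LPIN1 gave a log2 FC of 0.60 (SE 0.45, 95% interval -0.37 to 1.57), the highest of the 10 genes, with an unadjusted p of 0.206 in limma. The second LPIN1 probe had a log2 FC of 0.73 and the third one of 0.47. The second probe had the lowest unadjusted p of the 28 probes, 0.13 in limma. With normexp background correction the log2 FC of LPIN1 was 0.29.

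DGAT1 and DGAT2 encode unrelated enzymes that both complete the triglyceride. The DGAT1 (NM_174693) signal was -1.50 to -0.67 in the CONT cows, around a median of -0.91, and -1.03 to -0.32 in the REST cows, around -0.77. REST 2, REST 5 and REST 6 were above every CONT cow, while CONT 5 and CONT 6 were below every REST cow. DGAT1 gave a log2 FC of 0.25 (SE 0.19, 95% interval -0.15 to 0.66) with an exact permutation p of 0.18, the lowest of the 10 genes, where the design allows 0.00216 at the lowest. This was the narrowest interval, and its upper end is a 1.58-fold difference. The second DGAT1 probe had a log2 FC of 0.23, and the dimmest one, marked as well above background in 2 CONT cows and 1 REST cow, had 0.046.

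The DGAT2 (NM_205793) signal was -3.45 to 0.31 in the CONT cows, around a median of -1.81, and -4.45 to 1.16 in the REST cows, around -1.14. Both the lowest cow (REST 2, whose spot was not marked as well above background) and the highest (REST 6) were REST cows, and the CONT range lay between them. DGAT2 gave a log2 FC of -0.058 (SE 0.92, 95% interval -2.05 to 1.93), and its other probes gave 0.27 and 0.18. All 3 DGAT2 probes placed REST 2 lowest and REST 6 highest.

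Among the globule genes, BTN1A1 (NM_174508) encodes butyrophilin, a transmembrane protein of the globule surface. Its log2 signal was 4.25 to 8.10 in the CONT cows, around a median of 7.05, and 4.19 to 8.42 in the REST cows, around 7.41. REST 3 and CONT 6 were the lowest cows and REST 2 and REST 5 the highest. BTN1A1 gave a log2 FC of 0.35 (SE 0.78, 95% interval -1.35 to 2.04), and 0.45 and 0.43 with its other probes.

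XDH (NM_173972) is a purine-degrading enzyme that also takes part in globule secretion. Its signal was 6.30 to 8.64 in the CONT cows, around a median of 7.98, and 6.83 to 8.73 in the REST cows, around 7.98, so that the medians were equal at this precision. The single XDH probe gave a log2 FC of 0.25 (SE 0.41, 95% interval -0.64 to 1.14).

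PLIN2 (NM_173980) encodes perilipin 2, the main coat protein of mammary lipid droplets. Its signal was 3.03 to 5.26 in the CONT cows, around a median of 4.70, and 3.61 to 5.49 in the REST cows, around 4.81. REST 2 and REST 5 lay above the CONT cows by a small margin, and CONT 6 and CONT 5 below the REST cows. The single PLIN2 probe gave a log2 FC of 0.37 (SE 0.43, 95% interval -0.56 to 1.30).

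MFGE8 (NM_176610), the gene of lactadherin, had a signal of 1.10 to 4.64 in the CONT cows, around a median of 3.63, and 0.76 to 5.09 in the REST cows, around 3.56. The REST range enclosed the CONT range. MFGE8 gave a log2 FC of 0.052 (SE 0.80, 95% interval -1.69 to 1.79), and its second probe gave 0.11.

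MUC1 (NM_174115), a heavily glycosylated mucin of the apical membrane, had a signal of 3.39 to 7.19 in the CONT cows, around a median of 6.75, and 5.16 to 6.98 in the REST cows, around 6.73. The other 5 CONT cows lay between 6.31 and 7.19 and CONT 6 lay apart at 3.39. All 5 MUC1 probes had their lowest value in CONT 6. MUC1 gave a log2 FC of 0.19 (SE 0.59, 95% interval -1.09 to 1.46), and -0.38 without CONT 6.

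CIDEA (NM_001083449) encodes a protein of the lipid droplet surface that promotes droplet growth. Its signal was 2.36 to 6.47 in the CONT cows, around a median of 4.90, and 1.67 to 6.98 in the REST cows, around 5.87. CIDEA gave a log2 FC of 0.29 (SE 0.96, 95% interval -1.79 to 2.38), the widest interval of the 10 genes, which runs from 3.47-fold lower to 5.19-fold higher in REST. Its other probes gave 0.44, 0.15 and 0.27. The value of 0.44 rests on 5 REST cows, because the spot of REST 3 had an outlier mark and was left out. REST 3 was the lowest cow with the brightest probe. REST 6 had 5.72 with the brightest probe, but the probes that gave 0.44 and 0.15 placed it among their 4 lowest cows.

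**Figure D2:**
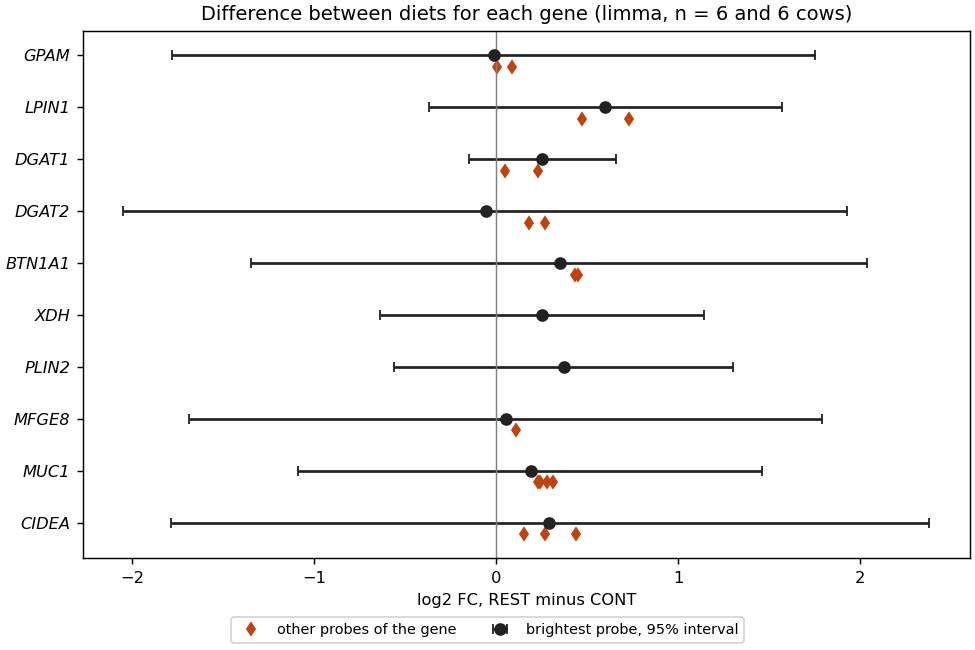
Log2 FC (REST minus CONT) of each gene with its 95% interval from limma for the brightest probe (black, n = 6 cows per group), and the log2 FC of its other probes (orange). Every interval includes 0, and the intervals of DGAT2 and CIDEA are the widest.

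Within slides the log2 FC had no common direction. On slide 1, where a single REST cow stood against 3 CONT cows, the REST value was lower than the CONT mean in 9 of the 10 genes when DGAT1 (-0.00086) is counted, and higher in DGAT2 (0.79). On slide 2, with a single CONT cow, CIDEA differed by 2.25, MFGE8 by 1.33, BTN1A1 by 1.16 and DGAT2 by -3.43. On slide 3, with 2 cows of each group, GPAM differed by -1.23, MFGE8 by -0.87 and CIDEA by -0.72, whereas LPIN1 differed by 0.95, MUC1 by 0.86 and DGAT2 by 2.23. With slide as a block in limma, the log2 FC was -0.48 (SE 0.82) for GPAM, 0.49 (SE 0.52) for LPIN1, 0.20 (SE 0.21) for DGAT1 and 0.10 (SE 1.01) for DGAT2. In the same fit it was -0.071 (SE 0.78) for BTN1A1, 0.038 (SE 0.41) for XDH, 0.21 (SE 0.42) for PLIN2, -0.38 (SE 0.79) for MFGE8, 0.15 (SE 0.61) for MUC1 and -0.20 (SE 1.00) for CIDEA. All adjusted p of this fit were 1 for these genes.

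The spread between cows of the same diet was wide. The SD within groups was 1.86 for CIDEA, 1.57 for GPAM, 1.55 for MFGE8 and 1.50 for BTN1A1 on the log2 scale. Over the 9082 named genes that were well above background in every cow, the median was 0.33, so that these 4 genes stood at the 99.1 to 99.7 percentile. MUC1 (1.12), PLIN2 (0.81) and XDH (0.77) stood at the 90.7 to 97.0 percentile, and DGAT1 (0.30) at the 41.9 percentile. The SD was 1.77 for DGAT2 and 0.85 for LPIN1, and 1.59 and 0.84 without the 1 REST cow in which each was not well above background. From the lowest to the highest cow the signal differed 39.5-fold for CIDEA, 26.0-fold for GPAM, 20.2-fold for MFGE8 and 18.7-fold for BTN1A1. For DGAT2 the ratio was 48.9, but its lowest cow, REST 2, was not well above background, and it was 32.4 over the other 11 cows. The same ratio was 14.0 for MUC1, 7.88 for LPIN1, 5.48 for PLIN2, 5.41 for XDH and 2.26 for DGAT1.

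The same cows were lowest in every gene except DGAT2. CONT 5, CONT 6, REST 1 and REST 3 were the 4 lowest cows in 9 of the 10 genes and in 18 of the 28 probes. These 4 cows comprise 2 of each diet, with 2 arrays on slide 1, 2 on slide 3 and 0 on slide 2. In BTN1A1 they had log2 signals of 5.79, 4.25, 5.93 and 4.19, while the other 8 cows lay at 6.91 or above. DGAT2 was lowest in CONT 2, CONT 3, REST 2 and REST 5, of which REST 2 and REST 5 were the highest cows for BTN1A1, XDH and PLIN2.

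**Figure D3:**
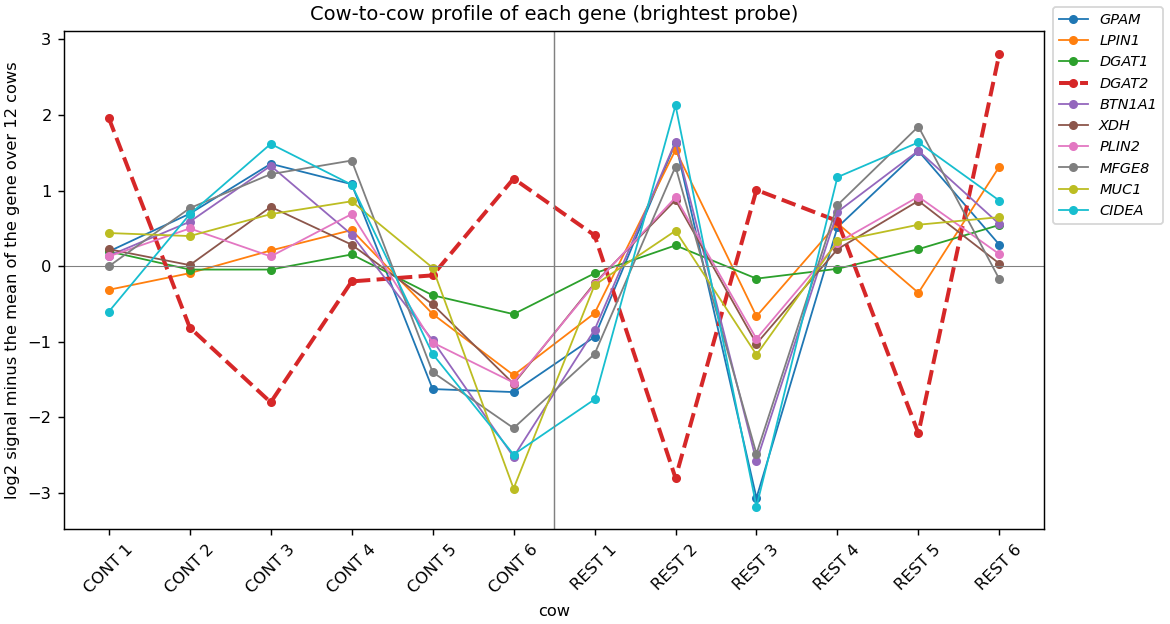
Log2 signal of each gene (brightest probe) minus its mean over the 12 cows, on the y axis, for each cow on the x axis, where lines only guide the eye because cows have no order. CONT 6 and REST 3 are low in the 9 solid lines, and DGAT2 (dashed) is high in REST 6 and CONT 1 and low in REST 2 and REST 5.

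Over the 12 cows, 36 of the 45 pairs of genes had a correlation with an adjusted p under 0.05 (permutation test with 100000 resamples, two-sided, Benjamini-Hochberg over 45 pairs). These were the 36 pairs without DGAT2, with Pearson's r from 0.63 to 0.97 (adjusted permutation p 0.0001 to 0.038) and Spearman's rho from 0.65 to 0.97 (adjusted p 0.00022 to 0.028). The smallest unadjusted p that these permutations gave was 1e-05. In the 15 pairs of globule genes r was 0.78 to 0.97 and rho 0.67 to 0.97. For comparison, 7.58% of the pairs formed by 8992 other named genes well above background had an r at or above 0.63, the lowest among the 36 pairs. BTN1A1 correlated with XDH at r = 0.97 (rho 0.88) and with CIDEA at r = 0.97 (rho 0.97). Among the assembly enzymes, GPAM correlated with MFGE8 at r = 0.97 (rho 0.95) and with BTN1A1 at r = 0.96 (rho 0.95). LPIN1 and DGAT1 correlated with each other at r = 0.80 (rho 0.80), and both with MFGE8 at r = 0.63. Leaving out the 2 cows farthest from the median of the first gene of a pair gave r of 0.54 to 0.97 in the 36 pairs. After centring on diet r was 0.66 to 0.97, and after centring on slide it was 0.57 to 0.97. Within the 6 CONT cows r was 0.74 to 0.98 and within the 6 REST cows 0.49 to 1.00. Each slide holds 4 arrays, too few for a correlation within 1 slide. Without CONT 6, 24 of the 45 pairs passed the same threshold.

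The pairs with DGAT2 gave other values. Its 9 correlations with the other genes had r from -0.59 to -0.03, and 0 of them passed the adjusted threshold by r (adjusted permutation p 0.055 to 0.93). By rho, which ranged from -0.76 to -0.15, 6 of them passed it (lowest adjusted p 0.011, with GPAM). After centring on slide these r values were -0.51 to 0.08. DGAT1 and DGAT2 had an r of -0.03 (rho -0.15).

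**Figure D4:**
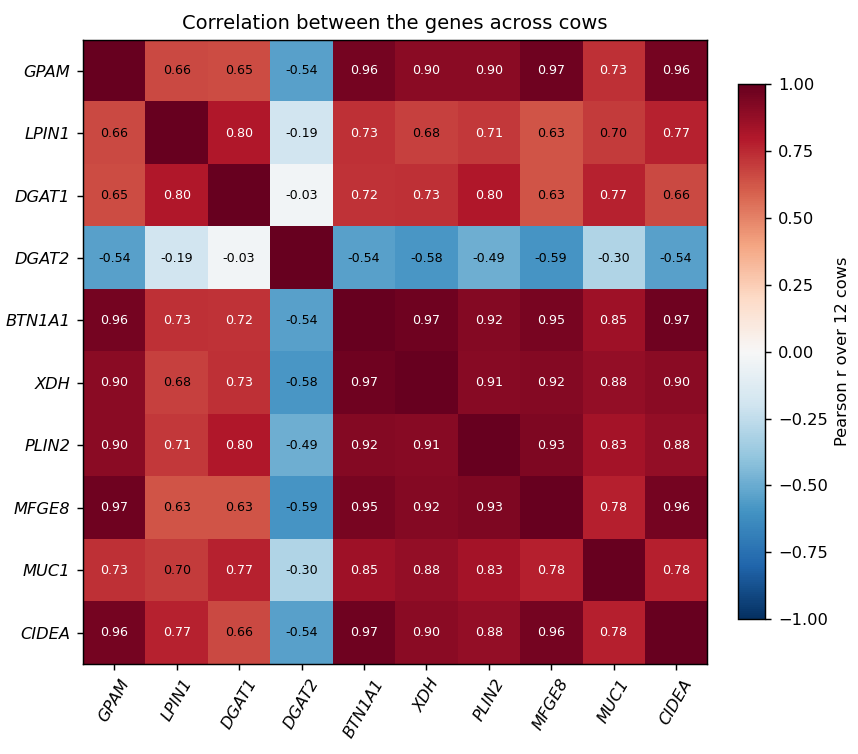
Pearson's r over 12 cows for each pair of the 10 genes, from blue (-1) to red (1), with the value printed in each cell. The row of DGAT2 is negative throughout (-0.59 to -0.03) and the other 36 pairs range from 0.63 to 0.97.

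Markers of the cell types in the biopsy were set beside these values, as the linear signal over the array's 75th percentile summed over the brightest probes of a list. In bulk tissue, fewer cells of a type and less RNA per cell cannot be told apart. The list of secretory epithelium (9 of 10 genes measured, led by CSN3, which encodes kappa-casein and made up 22.9 to 37.8% of the sum) summed to 1190 to 3560 in CONT and 1690 to 4860 in REST. LALBA, the milk whey protein gene that marks secreting cells, had log2 signals of 6.94 to 9.94 in CONT and 7.34 to 10.32 in REST, and a log2 FC of 0.19 (SE 0.58, limma adjusted p 1), or -0.15 with slide as a block. In this list 7 of the 9 genes had a higher mean in REST, and the keratin genes KRT18 (-0.49) and KRT8 (-0.062) a lower one. With slide as a block KRT18 was -0.28 and KRT8 turned to 0.18. CSN2 was not matched by accession and was not analysed here. The same 4 cows, CONT 5, CONT 6, REST 1 and REST 3, had the lowest secretory sums, at 2260, 1190, 1760 and 1690. CONT 5 was close to CONT 4 (2290) and CONT 2 (2330), so that the fourth place is not well separated.

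Of 70 correlations between the 10 genes and 7 marker lists, 14 passed an adjusted permutation p of 0.05 by r, and all 14 were positive. The secretory sum accounted for 8 of them, with XDH at r = 0.92 (rho 0.90), BTN1A1 at r = 0.91 (rho 0.95) and CIDEA at r = 0.88 (rho 0.94). LPIN1 had the lowest r of the 8 genes (0.72), and 12.8% of 8983 other named genes reached this value with the same sum. Without the 2 cows farthest from the median of the gene, r of the 8 genes was 0.45 (MUC1) to 0.88 (BTN1A1), and centred on slide 0.72 to 0.90. By rho, MUC1 did not pass (0.69, adjusted permutation p 0.06). DGAT1 had an r of 0.63 with this sum (adjusted permutation p 0.075, rho 0.80, adjusted p 0.026), and DGAT2 one of -0.65 (adjusted permutation p 0.07, rho -0.53, adjusted p 0.17). Without CONT 6, 5 of the 10 genes passed. The part of the secretory markers in the differences between cows was not tested.

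The sum that went with DGAT2 was that of the neutrophil markers, which (6 of 7 genes measured, led by S100A12, which encodes a calcium-binding protein of granulocytes and made up 65.8% of the sum on average) summed to 20.0 to 174 in CONT and 6.57 to 195 in REST. REST 2, at 6.57, was the lowest cow for this sum and for DGAT2. REST 6 at 195 and CONT 1 at 174 were the highest cows for both. DGAT2 correlated with the neutrophil sum at r = 0.90 (adjusted permutation p 0.0016, over 70 relations) and rho = 0.88 (adjusted p 0.0054), and 1.2% of 8986 other named genes had an r as high with this sum. Without REST 2 and REST 6, the cows farthest from the median of DGAT2, r was 0.81. It was 0.90 centred on diet and 0.89 centred on slide, 0.81 within CONT and 0.94 within REST, and 0.86 to 0.92 with each cow left out in turn. No correlation of the other 9 genes with this sum passed the threshold, with r from -0.43 to 0.13. In the neutrophil list, S100A8, a granulocyte calprotectin gene, had a log2 FC of 0.31 (SE 0.94, limma adjusted p 1). Whether the neutrophil markers account for the spread of DGAT2 was not tested.

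**Figure D5:**
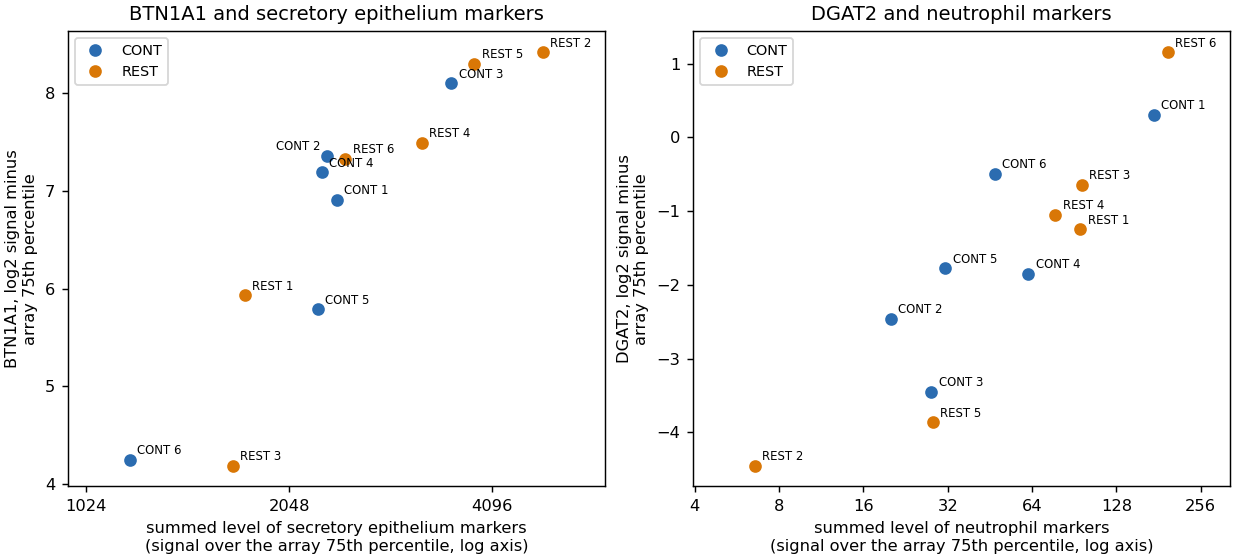
Log2 signal of BTN1A1 against the summed level of secretory epithelium markers (left) and of DGAT2 against that of neutrophil markers (right), with 1 point per cow (blue CONT, orange REST) and a log x axis. BTN1A1 is lowest in REST 3 and CONT 6, and DGAT2 runs from its lowest cow, REST 2, at a neutrophil sum of 6.57 to its highest, REST 6, at 195.

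Each of the remaining marker lists passed the threshold by r with 5 or fewer of the 10 genes. The adipocyte list (7 of 8 genes measured) passed the threshold with 5 genes by r and 1 by rho. FABP4, a fatty acid carrier of adipocytes that is also found in endothelium, made up 95.9 to 99.9% of this sum, so that these values are those of FABP4 and not of the list. CONT 6 had a sum of 7.61, and the other CONT cows had 55.4 to 164 and the REST cows 101 to 243. PLIN1 was well above background on 3 arrays and LEP on 5, and ADIPOQ was not matched and was not analysed here. CONT 6 was also lowest for the endothelium sum (6 of 6 genes), with 3.18 against 8.95 or more in the other cows. All 6 endothelium genes had a higher mean in REST, against 43.5% of all named genes. The medians of TEK were -0.35 in CONT and -0.36 in REST. The median log2 FC of the 6 genes was 0.43, from 0.34 to 0.46 under the other scalings and with slide as a block. VWF (0.79, SE 0.30) was the gene with an unadjusted p under 0.05 in limma (0.0227, adjusted p 1), in these settings too but not without REST 3. This was 1 of 6 genes, against 1.63% of all genes higher in REST. Without CONT 6, the lowest cow for the endothelium sum, VWF had a log2 FC of 0.5 (unadjusted p 0.0164 in limma). The fibroblast sum (6 of 6 genes) was 49.5 to 66.9 in CONT and 23.0 to 69.4 in REST, and it correlated with the 10 genes at r of -0.68 to 0.54, with 0 genes past the threshold by r and 4 by rho. Of the 7 marker lists, the fibroblast list had most genes at an unadjusted p under 0.05 in limma, 3 of 6 lower in REST (COL1A1, COL1A2 and LUM) against 1.01% of all genes, none with an adjusted p under 1. This count was 1 (LUM) with slide as a block or with normexp, 2 with quantile normalization and 4 with a median shift. The macrophage and monocyte sum (6 of 7 genes) was 9.05 to 17.0 in CONT and 9.37 to 23.6 in REST, and the myoepithelium sum (6 of 6 genes) 86.3 to 235 and 79.3 to 134. Neither passed the threshold with any gene. The part of these lists in the differences between cows was not tested. The 30 correlations of the 10 genes with measures of array quality had r from -0.71 to 0.60, and 0 of them passed the threshold (lowest adjusted permutation p 0.22 by r and 0.17 by rho). With the 75th percentile of the signal, which was subtracted from every value, the 9 genes other than DGAT2 had r of -0.71 (XDH) to -0.47 (DGAT1) and DGAT2 had 0.60, and 6 of these 10 correlations had an unadjusted permutation p under 0.05. Its part in the shared differences between cows was not tested.

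The genes whose pattern over cows was most like that of each gene were taken from 8992 other named genes, by Pearson's r of values centred on diet over 12 cows, as a description. For DGAT2 they were TWF2 (0.99), CYBA (0.99) and SCPEP1 (0.97). For BTN1A1 they were RETREG1, TMEM120B and MUC15 (all 0.99). For XDH they were TSPAN13 (0.99), ABCG2 (0.99) and MUC15 (0.98). For CIDEA they were MROH1 (0.99), FAM107A (0.99) and NPL (0.98), and for GPAM TECTB, MCCC1 and FAM107A (all 0.98). MFGE8 was nearest to HMGN4 (0.99), SLC25A21 (0.98) and TMEM171 (0.98), and PLIN2 to ALKBH7 (0.98), ACSS2 (0.97) and TMEM171 (0.96). MUC1 was nearest to CLEC14A (0.97), SERINC2 (0.97) and SLC5A9 (0.96), LPIN1 to DYNC2I2 (0.97), ACY1 (0.95) and TNFRSF4 (0.93), and DGAT1 to MED27 (0.95), FAM204A (0.95) and AP1M2 (0.94).

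The remaining genes of the pathway were read from 4 lists, of which 41 of 48 genes were matched. None had an adjusted p under 0.05, and 1 of 41 had an unadjusted p under 0.05 in limma, against 2.64% of all named genes. Of the other acyltransferases and lipins, 9 of 13 were measured, 4 had a higher mean in REST, and the median log2 FC was -0.03. MOGAT1, 1 of the 9, was well above background on 1 array. GPAT2, another acyltransferase of glycerol phosphate, had a log2 signal of -4.38 to -2.70 in the CONT cows, around a median of -3.52, and -3.53 to -1.74 in the REST cows, around -2.76. GPAT2 gave a log2 FC of 0.90 (SE 0.35, unadjusted p 0.0237 and adjusted p 1 in limma), and 0.37 with normexp background correction, where it did not pass an unadjusted p of 0.05. It did not pass either without CONT 6 (0.73, p 0.0553), REST 2 (0.72, p 0.0563) or REST 5 (0.73, p 0.057).

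Of the other droplet and globule genes, 15 of 16 were measured, 13 had a higher mean in REST, against 43.5% of all named genes, and the median log2 FC was 0.13. In the fit with slide as a block, 9 had a higher mean, against 52.4% of all named genes, and the median was 0.039. Of these 15 genes, HSD17B13 was well above background on 0 arrays and PLIN1 on 3. PLIN1 had a log2 FC of 0.25, and -0.05 with normexp background correction. CD36, a fatty acid transporter also found on the globule membrane, had a log2 FC of 0.72 (SE 0.63, adjusted p 1) with 1 CONT value missing because of an outlier mark, and 0.33 with slide as a block. Of the 6 lipolysis genes 5 were measured, and all 5 had a higher mean in REST, against 43.5% of all named genes. The log2 FC of these 5 genes ran from 0.37 to 0.59 around a median of 0.46. LIPE and ABHD5, each well above background on 10 arrays, had 0.09 and 0.19 with normexp. PNPLA2, MGLL and G0S2 had 0.43, 0.5 and 0.56 in that setting. None of these 5 passed an unadjusted p of 0.05 in limma. MGLL, a monoacylglycerol lipase, was just above it (0.0538) and passed it with quantile normalization, normexp and the 75th percentile over probes well above background. G0S2, which inhibits the triglyceride lipase PNPLA2, had 0.59 (SE 0.68, adjusted p 1), and 0.05 with slide as a block. All 5 also had a higher mean in REST with quantile normalization, normexp correction, a median shift, a 75th percentile over probes well above background and slide as a block, with medians of 0.36 to 0.49. Of the regulators of milk fat genes, 12 of 13 were measured, 7 had a higher mean in REST, and the median log2 FC was 0.036. The median turned to -0.029 with quantile normalization, -0.021 with a median shift and -0.056 with slide as a block, with 5, 6 and 5 genes higher in REST. PPARA, in this list, was well above background on 1 array. INSIG1, which retains the SREBP complex in the endoplasmic reticulum, had a log2 signal of 1.10 to 2.80 in the CONT cows, around a median of 2.51, and 0.30 to 3.25 in the REST cows, around 1.31. INSIG1 gave a log2 FC of -0.70 (SE 0.50, adjusted p 1), and -0.96 with slide as a block, where it passed an unadjusted but not an adjusted p of 0.05.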

How the data were processed

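MG RNA (100 ng per cow) was labelled with Cy3 by the authors, and the deposited intensities are spot signals from Feature Extraction (11.0.1.1), background-subtracted, spatially detrended and with dim values replaced. This replacement makes differences of dim probes uncertain. The deposited marks of each spot (well above background, outlier, saturated) were used as given. Of 45220 spots, 43803 were not controls. Outlier spots were dropped, the array's 75th percentile was subtracted from each log2 intensity, spots of a probe were averaged, and no filter on dim probes was made. The matrix deposited with the series held the same intensities. Accessions were named through a RefSeq table (ARS-UCD2.0), whose build differs from that of the array (UMD_3.1), so no positions are given. REST was compared with CONT by limma 3.58.1 (R 4.3.3), two-sided, over all probes, with the diet as the only term. P-values were adjusted by Benjamini-Hochberg. Westfall-Young adjustment, which the authors used, was run over 100 splits as an alternative. The code was tested on simulated data. Correlations used scipy 1.17.1 and figures matplotlib 3.10.9. The members and gene lists were chosen with earlier results of these data known. Named genes were the 10 members, in each pathway list the genes with an unadjusted p under 0.05 or else the largest log2 FC among probes well above background, the defining markers, and the 3 genes most like each member. S100A8, MGLL, VWF, KRT8, KRT18, COL1A1, COL1A2 and LUM, and the leading genes of the marker lists, were named after their values were seen. Alternatives were quantile normalization, other shifts, normexp (offset 50), a filter on dim probes, kept outlier spots, an intensity trend, slide as a block, means over probes and leaving out each cow. Promoter and protein sequences were not analysed here.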

Additional observations from a re-analysis of the deposited data

Results flagged for a closer look

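MUC1 in CONT held a cow far from the others. CONT 6 had a log2 signal of 3.39 and the nearest CONT cow 6.31, a gap that was 0.77 of the whole range of the group, above Dixon's critical value of 0.625 for 6 cows. This was 1 of the 20 groups tested (10 genes in CONT and REST), and chance gives about 1.0. CONT 6 was also the lowest cow in the other MUC1 probes. It was lowest as well in the secretory epithelium marker sum (1190, with REST 3 next at 1690), the sum led by FABP4 (7.61) and the endothelium marker sum (3.18), whose part in this value was not tested.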

How the results depend on the processing

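No gene of the 10 passed an adjusted or unadjusted p of 0.05 in limma under any of the fits, and no probe was called by Westfall-Young adjustment (lowest p 0.27). The paper, with other software, reports genes that passed this adjustment at 0.05, and none of the 10 is among those it names. The reason for this difference in calls was not tested. The direction of most small differences depended on the setting, and the causes were not tested. GPAM was 0.015 with the 75th percentile taken over probes well above background on all arrays, 0.068 with normexp, and 0.025 with the mean over all probes or over probes well above background. DGAT2 was 0.13 with normexp and with the mean over all probes, 0.27 with the mean over probes well above background and 0.10 with slide as a block. MFGE8 was -0.0042 with a median shift and -0.38 with slide as a block, where BTN1A1 was -0.071 and CIDEA -0.20. Within slide 1 LPIN1 was -0.54, DGAT1 -0.00086, DGAT2 0.79, BTN1A1 -0.85, XDH -0.15, PLIN2 -0.30, MFGE8 -1.42, MUC1 -0.67 and CIDEA -1.96. Within slide 2 GPAM was 1.03 and DGAT1 -0.042, and within slide 3 DGAT2 was 2.23, BTN1A1 -0.41, XDH -0.11, MFGE8 -0.87 and CIDEA -0.72. With each cow left out, log2 FC ranged from -0.35 to 0.60 for GPAM, -0.63 to 0.50 for DGAT2, -0.13 to 0.90 for BTN1A1, -0.036 to 0.48 for XDH, -0.37 to 0.55 for MFGE8, -0.38 to 0.44 for MUC1 and -0.18 to 0.96 for CIDEA. The lower ends of these ranges were the values without CONT 6, except for DGAT2. LPIN1 (0.35 to 0.79), DGAT1 (0.15 to 0.32) and PLIN2 (0.095 to 0.60) stayed above 0 in these sets. The genes with a higher mean in REST numbered 4 to 10 (4 without CONT 6) and their median log2 FC was -0.08 to 0.58. The pairs of correlated genes numbered 24 to 41, and 35 with quantile normalization. Genes correlated with the secretory sum numbered 5 to 10, and 7 with quantile normalization. The sets of 11 cows for these correlations and for DGAT2 with the neutrophil sum were added after the data were seen, with 20000 permutations each. Pathway genes at an unadjusted p under 0.05 (1) numbered 3 with quantile normalization, 2 with the 75th percentile over probes well above background, normexp, the filter on dim probes, slide as a block, the intensity trend or the mean over probes well above background, and 0 to 3 with each cow left out (0 without CONT 6, where GPAT2 did not pass). GPAT2 was not among the 2 genes with normexp, which were PLIN3 and MGLL, and INSIG1 was added with slide as a block (names chosen after the values were seen). All probes at this level (1143) numbered 377 with normexp and 825 to 1739 with each cow left out (1739 without REST 6), and over genes 301 with the mean over all probes and 303 over probes well above background. No paired analysis was possible because the labels give every cow the same replicate number. Promoter motifs were not run. LPIN1 and DGAT2 lacked signal well above background on 1 REST array each, which limits their values.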
